A study of Mus musculus with 16 samples.

Results

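Oligodendrocyte lineage transcription factors are the proteins that give a glial progenitor its lineage and later switch on its myelin genes. The 9 described here were taken by name from the 55335 genes counted in every library. Olig1, Olig2, Sox10, Sox8 and Nkx2-2 are the 5 factors of lineage identity, and Nkx6-2, Myrf, Zfp488 and Tcf7l2 are the 4 factors of terminal maturation. RNA was sequenced from oligodendrocyte precursor cells (OPCs), the progenitors of myelin-forming oligodendrocytes, that were grown from mouse neural stem cells by way of oligospheres and lysed on day 4 in monolayer. The labels give 4 groups of 4 libraries, all of a mixed C57BL6J/129svEmx background: RXRgKO OPCs (RXRg-/-) with T3 for 24 h, RXRgKO OPCs untreated, WT OPCs (RXRg+/+) with T3 for 24 h, and WT OPCs untreated. RXRg is the retinoid X receptor gamma, a nuclear receptor, and T3 is the thyroid hormone triiodothyronine. The sources used here do not say which exons the RXRg-/- allele lacks. Whether the 4 libraries in a group are from different cultures or animals is likewise not stated. All p-values therefore reflect library-to-library spread, which may be technical. In such bulk RNA, fewer cells of a type and less RNA per cell cannot be told apart.

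Libraries held 18262279 to 42588442 counts in genes, and each of the 9 factors had 179 to 25221 counts in every library, so that all 9 passed the filter that left 19764 genes for testing. Levels are given as CPM, counts scaled to a common library size and normalised by TMM. Rxrg itself lay at 4.27 to 5.46 CPM in RXRgKO-labelled T3 libraries, 3.77 to 4.83 CPM in RXRgKO-labelled untreated libraries, 0.371 to 0.960 CPM in WT-labelled T3 libraries and at most 1.79 CPM in WT-labelled untreated libraries. This goes against the genotype labels, so the libraries are called WT-labelled and RXRgKO-labelled throughout, and every direction between them is that between labels. Markers of OPCs were present in every library, with Pdgfra, the PDGF receptor of OPCs, at 175 to 614 CPM in RXRgKO-labelled T3 libraries and 449 to 573 CPM in WT-labelled T3 libraries. The libraries of a group were not alike. WT-labelled replicate 1 stood apart from replicates 2 to 4 with and without T3, and the RXRgKO-labelled libraries fell into a set with 1.39 to 3.75 CPM of Xist (T3 replicates 1 and 2, untreated replicates 1 and 3) and a set with 543 to 723 CPM (T3 replicates 3 and 4, untreated replicates 2 and 4). Chi-square per gene was 1.48 to 2.08 within these sets and 4.79 to 7.64 between them. Matching sets between treatments rests on the replicate number under the WT label and on Xist under the RXRgKO label. It is not given by the labels, and Ddx3y, a Y-linked gene, differed within matched sets: it lay at 68.1 to 78.3 CPM with T3 and 13.9 to 15.8 CPM without it in WT-labelled replicates 2 to 4.

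Oligodendrocyte development runs as a relay of such factors. The basic helix-loop-helix proteins Olig1 and Olig2 mark the whole lineage, and Olig2 is needed to specify it and acts upstream of the HMG-box factor Sox10. Sox10 and its close relative Sox8 are present from OPC to myelinating cell, and Sox10 activates both Myrf and many myelin genes. Myrf is a membrane-bound factor that cleaves itself to release its DNA-binding part, without which mouse oligodendrocytes do not complete myelination.

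The promoters below are shown for 3 of the factors. Nkx6-2 was the factor called higher with T3 under both labels, and Nkx2-2 was lower with T3 within every library set. Olig2 was called in no comparison of all 16 libraries fitted by group, a trait shared by all factors but Nkx6-2 and Myrf. Each window is 300 bases, 250 before the gene start and 50 after it, from RefSeq on GRCm38.p6, written 5′ to 3′ on the gene's strand at chr7:139582748-139583047 (minus), chr2:147186353-147186652 (minus) and chr16:91225300-91225599 (plus). The RefSeq starts of Nkx2-2 and Olig2 lie inside the longer GENCODE spans of these genes. Capitals mark matches to the motifs searched on both strands.
Nkx6-2: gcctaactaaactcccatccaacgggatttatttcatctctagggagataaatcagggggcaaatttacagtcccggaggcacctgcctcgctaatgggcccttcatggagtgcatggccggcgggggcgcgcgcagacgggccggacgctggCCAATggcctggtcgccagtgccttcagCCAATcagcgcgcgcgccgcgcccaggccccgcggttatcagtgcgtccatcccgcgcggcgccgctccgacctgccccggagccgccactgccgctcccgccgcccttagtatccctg
Nkx2-2: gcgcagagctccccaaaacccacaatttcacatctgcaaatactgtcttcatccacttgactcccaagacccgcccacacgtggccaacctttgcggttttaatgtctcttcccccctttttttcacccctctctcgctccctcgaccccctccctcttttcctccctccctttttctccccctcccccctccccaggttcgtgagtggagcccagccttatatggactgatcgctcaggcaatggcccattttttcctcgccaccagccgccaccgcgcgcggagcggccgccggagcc
Olig2: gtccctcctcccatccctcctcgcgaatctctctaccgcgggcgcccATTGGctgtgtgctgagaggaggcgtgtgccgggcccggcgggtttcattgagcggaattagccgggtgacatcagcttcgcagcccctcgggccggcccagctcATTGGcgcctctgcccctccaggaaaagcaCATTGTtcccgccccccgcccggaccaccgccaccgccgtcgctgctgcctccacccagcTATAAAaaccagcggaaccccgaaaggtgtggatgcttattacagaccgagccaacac
The 6 factors found in the RefSeq promoter table (Olig2, Sox8, Nkx2-2, Nkx6-2, Zfp488 and Tcf7l2) had 7 promoters, since Tcf7l2 had 2. The letters AGGTCA, to which nuclear receptors such as those for T3 bind, were in 0 of these 7 windows and in 16.3% of all 32851 promoters of that length. The letters CCAAT were in the Nkx6-2 and Olig2 windows and in 37.4% of all promoters. In the Nkx6-2 window they began 97 and 69 bases before the start. ACAATG, a SOX motif, was in the windows of Olig2 and Tcf7l2 and in 12.6% of all promoters, and TATAAA was in the windows of Olig2 and Tcf7l2 and in 13.6%. ACAAAG, another SOX motif, was in a Tcf7l2 window and in 18.7% of all promoters, and CAGCTG, a motif bound by helix-loop-helix factors, was in the Zfp488 window and in 16.3%. The Nkx2-2 and Sox8 windows held none of the 6 motifs.

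To compare genes, levels were also expressed as TPM, the count per merged exon length scaled to a common sum. On that scale 4 of the 5 identity factors, all but Nkx2-2, lay above all 4 maturation factors in 16 of 16 libraries. With the longest transcript as length, Myrf lay above Sox8 in 4 of 4 WT-labelled T3 libraries and in none of the others. Olig1 (ENSMUSG00000046160; GRCm38 chromosome 16, 91269772 to 91271933, plus strand) had the highest TPM of the 9 in 16 of 16 libraries, and in 15 of 16 with the longest transcript as length. Its mean was 467 ± 232 TPM in RXRgKO-labelled T3 libraries, 595 ± 269 TPM in RXRgKO-labelled untreated libraries, 555 ± 188 TPM in WT-labelled T3 libraries and 571 ± 237 TPM in WT-labelled untreated libraries (SD, n = 4 each). Olig2 (ENSMUSG00000039830; chromosome 16, 91225457 to 91228677, plus strand), its neighbour on the chromosome, averaged 323 to 388 TPM over the 4 groups. Sox10 (ENSMUSG00000033006; chromosome 15, 79154908 to 79165240, minus strand) averaged 296 TPM in RXRgKO-labelled T3 libraries and 252 TPM in RXRgKO-labelled untreated libraries, against 441 TPM in WT-labelled T3 libraries and 382 TPM in WT-labelled untreated libraries. The library ranges of Olig1, Olig2 and Sox10 overlapped in each group, so their order rests on comparisons within libraries. Sox10 TPM were above those of Olig2 in 4 of 4 WT-labelled T3 libraries, in 1 of 4 WT-labelled untreated libraries and in 0 of 8 RXRgKO-labelled libraries. Sox8 (ENSMUSG00000024176; chromosome 17, 25565892 to 25570686, minus strand) ranked below Olig2 in 16 of 16 libraries.

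The other 5 factors had lower TPM than these 4 in every library by merged exon length, with the exception of Myrf by the other length given above. Nkx2-2 (ENSMUSG00000027434; chromosome 2, 147177546 to 147194243, minus strand), a homeodomain repressor active as OPCs begin to differentiate, averaged 33.7 to 52.9 TPM over the 4 groups. Myrf (ENSMUSG00000036098; chromosome 19, 10208272 to 10240748, minus strand) averaged 66.0 TPM in RXRgKO-labelled T3 libraries and 40.2 TPM in RXRgKO-labelled untreated libraries, against 154 TPM in WT-labelled T3 libraries and 90.4 TPM in WT-labelled untreated libraries. It was thus the most abundant maturation factor by mean TPM in each of the 4 groups. Zfp488 (ENSMUSG00000044519; chromosome 14, 33967070 to 33978764, minus strand), a zinc-finger protein that works with Olig2, averaged 33.8 to 61.2 TPM. Nkx6-2 (ENSMUSG00000041309; chromosome 7, 139579376 to 139582797, minus strand), a homeodomain factor of myelinating oligodendrocytes, and Tcf7l2 (ENSMUSG00000024985; chromosome 19, 55741820 to 55933654, plus strand), an HMG-box effector of Wnt signalling found in newly forming oligodendrocytes, held the lowest places. In untreated libraries Nkx6-2 averaged 13.0 TPM under the RXRgKO label and 25.8 TPM under the WT label, overlapping Tcf7l2 at 13.2 TPM and 20.2 TPM. With T3, Nkx6-2 moved up to rank 6 of 9 under both labels, with TPM above those of Tcf7l2 in 8 of 8 libraries. With the longest transcript as length, 11 of the 36 ranks (9 factors in 4 groups) moved. Sox8 and Sox10 swapped ranks 3 and 4 in RXRgKO-labelled untreated libraries, Myrf took rank 4 above Sox8 in WT-labelled T3 libraries, and Nkx6-2 was above Tcf7l2 in 5 of the 8 T3 libraries, with rank 7 under the RXRgKO label.

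**Figure D1:**
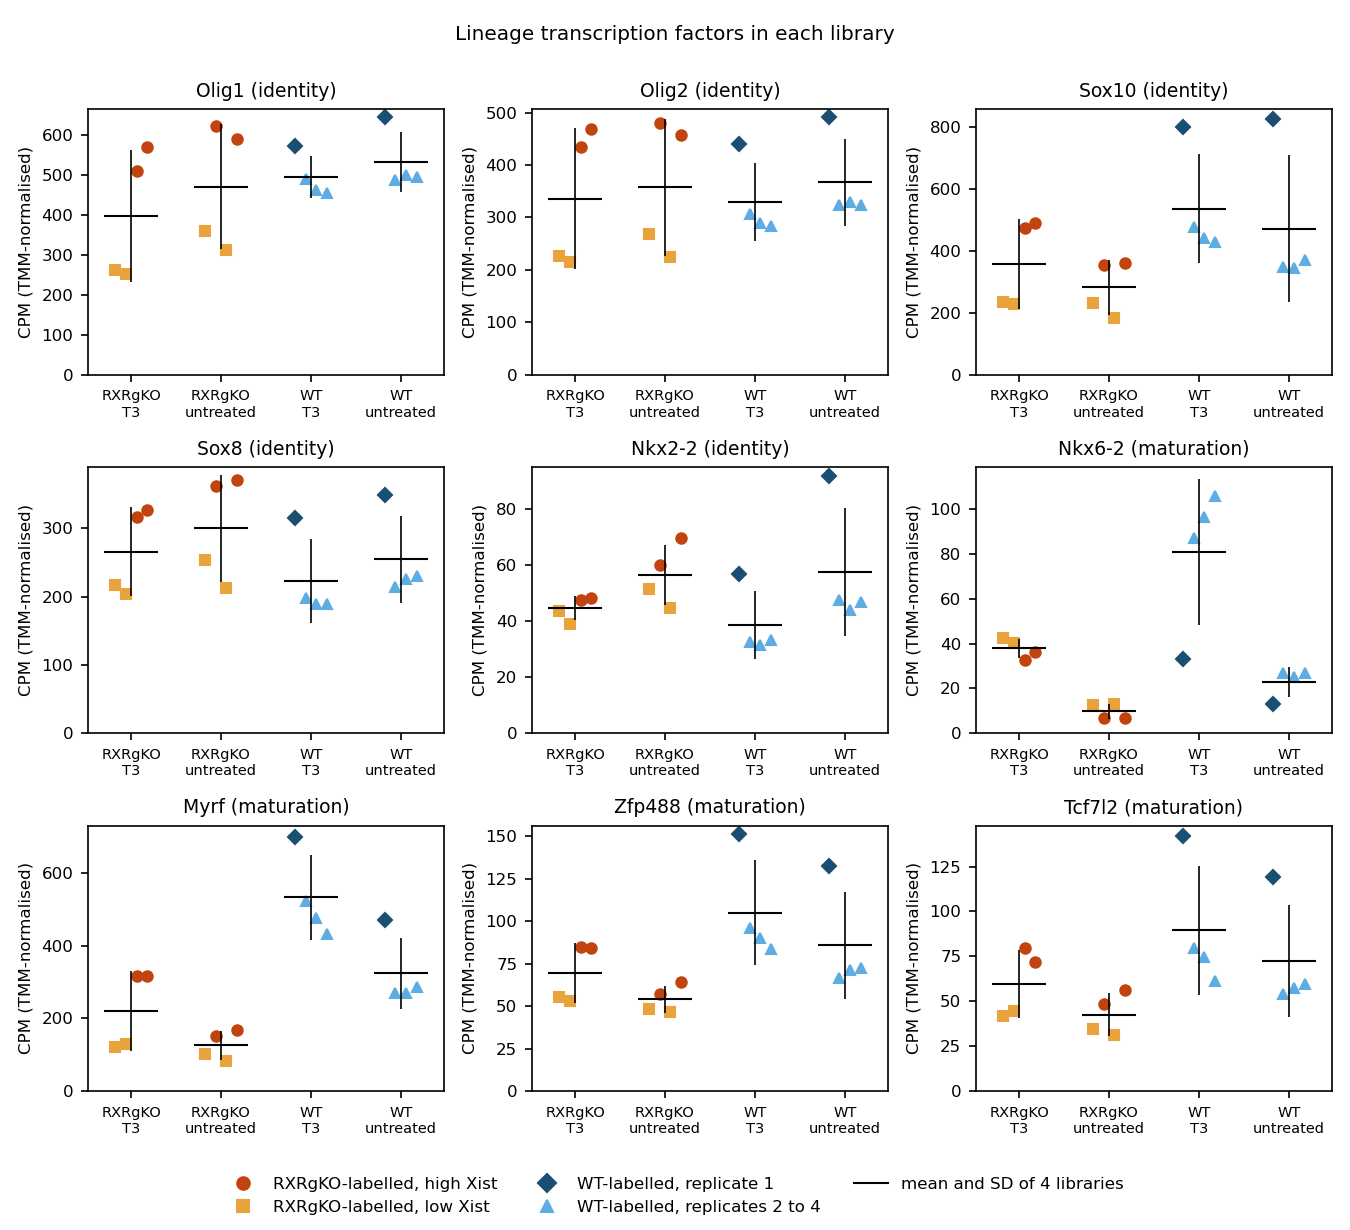
Level of each of the 9 factors in each library, in TMM-normalised CPM on a linear axis from 0, for the 4 groups of 4 libraries. Symbols show the library set, and bars show the mean and SD of 4 libraries. Nkx6-2 is at 32.7 to 42.3 CPM in RXRgKO-labelled T3 libraries and 6.63 to 13.1 CPM in RXRgKO-labelled untreated ones. Within each WT-labelled group, replicate 1 is highest for the other 8 factors.

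In the RXRgKO-labelled libraries a single factor, the maturation factor Nkx6-2, was called higher with T3. Its levels were 42.3, 40.3, 32.7 and 36.4 CPM in T3 replicates 1 to 4 and 12.4, 6.89, 13.1 and 6.63 CPM in untreated replicates 1 to 4. All 4 T3 libraries lay above all 4 untreated ones. The log2 fold change was 1.96 ± 0.33 (SE), with an adjusted p of 0.00274 in edgeR's quasi-likelihood test with Benjamini-Hochberg adjustment over all 19764 genes. Thus 1 of 9 factors was called higher, 0 lower and 8 were not called, where 2.81% of all genes tested were called, 2.01% higher and 0.794% lower. Without the high-Xist libraries the Nkx6-2 difference kept its size, at 1.73 on the log2 scale, but was not called (adjusted p = 0.191, edgeR), with 2 libraries left on each side.

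Under the WT label the same factor alone was called. Nkx6-2 lay at 33.2, 87.1, 96.7 and 106 CPM in T3 replicates 1 to 4, against 13.0, 26.9, 25.1 and 26.8 CPM in untreated replicates 1 to 4. Replicate 1 was the lowest library on both sides, and the groups did not overlap. The log2 fold change was 1.82 ± 0.33 (SE), a 3.52-fold difference with an adjusted p of 0.00194 (edgeR), and the log2 value stayed between 1.62 and 2.06 and was called in 19 of 19 alternative settings. Of the 9 factors 1 was called higher, 0 lower and 8 were not called, where 8.44% of all genes tested were called, 4.96% higher and 3.48% lower. The minus-strand Nkx6-2 shares 246 exon bases with Inpp5a, an inositol polyphosphate phosphatase gene on the opposite strand. Inpp5a was chosen for this overlap, and it too was called higher with T3 under the WT label, with a mean of 38.9 CPM in T3 libraries and 25.2 CPM in untreated libraries (log2 0.63, adjusted p = 0.00831, edgeR), but not under the RXRgKO label (log2 0.39, adjusted p = 0.160). The strand setting of the counting is not given in the sources used here, and the part of shared reads in either value was not tested.

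Myrf, the second maturation factor by size of the T3 difference, was not called in either label by the fit to all 16 libraries. It had 122, 130, 317 and 316 CPM in RXRgKO-labelled T3 replicates 1 to 4, against 101, 151, 82.1 and 169 CPM in RXRgKO-labelled untreated replicates 1 to 4. In WT-labelled libraries it had 700, 524, 476 and 432 CPM in T3 replicates 1 to 4, against 470, 270, 269 and 287 CPM in untreated replicates 1 to 4. The groups overlapped under both labels, in the WT-labelled libraries through replicate 1 of the untreated group alone. The log2 differences were 0.81 ± 0.33 (adjusted p = 0.225) under the RXRgKO label and 0.72 ± 0.33 (adjusted p = 0.207) under the WT label (SE, edgeR). With replicate as a block in the 8 WT-labelled libraries, a pairing that the labels do not give, Myrf was called (log2 0.73, adjusted p = 2.0e-04, edgeR). Zfp488 differed by 0.36 and 0.29 and Tcf7l2 by 0.48 and 0.30 on the log2 scale under the RXRgKO and WT labels, none of them called.

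None of the 5 identity factors was called with T3. Under the RXRgKO label their log2 differences ran from -0.34 for Nkx2-2 to 0.34 for Sox10, with a median of -0.17, against a median of -0.0019 over all genes. Under the WT label they ran from -0.57 for Nkx2-2 to 0.18 for Sox10, with a median of -0.15, against -0.032 over all genes. The 4 maturation factors had medians of 0.65 under the RXRgKO label and 0.51 under the WT label. Nkx2-2, the identity factor with the most negative T3 difference under both labels, had 43.4, 38.9, 47.6 and 48.4 CPM in RXRgKO-labelled T3 replicates 1 to 4, against 51.3, 60.1, 44.8 and 69.6 CPM in the untreated ones. Under the WT label it had 56.7, 32.7, 31.6 and 33.2 CPM in T3 replicates 1 to 4, against 91.7, 47.5, 43.8 and 46.8 CPM in the untreated ones. The groups overlapped in both cases, under the WT label only because T3 replicate 1 lay above untreated replicates 2 to 4.

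Within library sets the T3 differences of the maturation factors all had 1 direction. WT-labelled replicate 1 is 1 library per treatment, so that there only the direction counts. Each of the 4 was higher in T3 libraries, without overlap, in all 4 sets, where 12.3% of all genes tested were. Nkx6-2 differed by 2.34 in the high-Xist set, 1.69 in the low-Xist set, 1.35 in WT-labelled replicate 1 and 1.87 in WT-labelled replicates 2 to 4 on the log2 CPM scale. For Myrf these differences were 0.98, 0.47, 0.58 and 0.79, and for Zfp488 and Tcf7l2 they ranged from 0.19 to 0.48 and from 0.25 to 0.54. Nkx2-2 was lower in T3 libraries without overlap in all 4 sets, by 0.22 to 0.69, where 7.68% of all genes tested were. Olig1, Olig2 and Sox8 were lower on average in each set, with overlap in 1 or 2 of the sets, and Sox10 was higher in 3 sets and lower in WT-labelled replicate 1. These within-set values stand beside the Ddx3y differences given above, and the part of culture composition in them was not tested. Reads outside any annotated gene made up a lower share with T3 in each set: 11.55% to 12.5% against 18.1% to 20.5% untreated in the high-Xist set, 16.8% to 18.7% against 21.6% to 23.5% in the low-Xist set, 12.5% against 16.7% in WT-labelled replicate 1, and 13.3% to 14.7% against 16.7% to 17.65% in WT-labelled replicates 2 to 4. Its part in these differences was not tested.

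When the library set was a term of the edgeR fit, 8 of 9 factors were called for T3 under the RXRgKO label, all but Olig2, and 7 of 9 under the WT label, all but Olig1 and Olig2. That fit called 33.6% and 38.4% of all genes, and its p-values measure the spread inside sets that may be technical. The replicate numbers were also taken as pairs under the WT label, a pairing that the labels do not give. Replicate 1 stood apart in both groups, so the correlation check used for this cannot show pairs among replicates 2 to 4. In those replicates Xist lay at 276 to 365 CPM with T3 and 1198 to 1382 CPM untreated. A fit with replicate as a block on the 8 WT-labelled libraries called 5 of 9 factors. They were Nkx6-2, Nkx2-2 (log2 -0.56, adjusted p = 3.8e-04), Myrf (0.73, adjusted p = 2.0e-04), Zfp488 (0.30, adjusted p = 0.0140) and Tcf7l2 (0.30, adjusted p = 0.0245). This blocked fit called 29.4% of all genes.

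**Figure D2:**
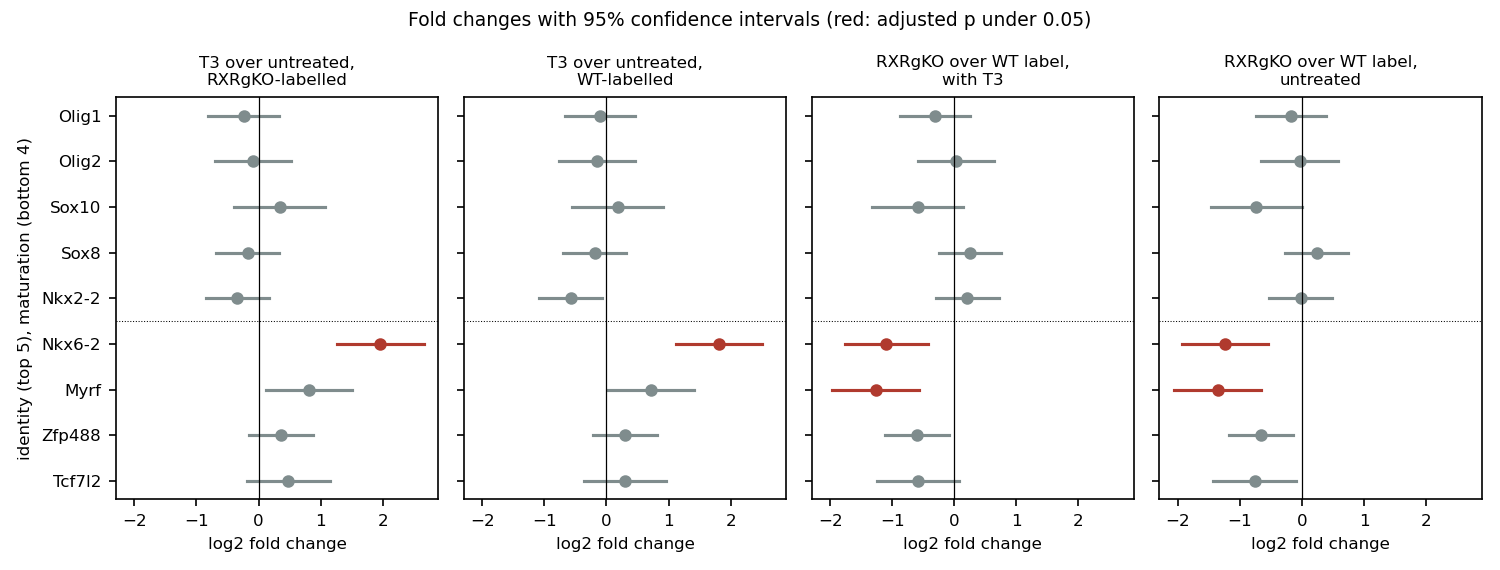
Log2 fold change with its 95% confidence interval for each factor in 4 comparisons of 4 against 4 libraries, from the edgeR fit to all 16 libraries; points in red have an adjusted p under 0.05. Nkx6-2 is the single called factor for T3, and Nkx6-2 and Myrf are the called factors between labels.

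Between genotype labels, 2 maturation factors were called lower in the RXRgKO-labelled libraries and no identity factor was called in the fit to all 16 libraries by group. With T3, Myrf averaged 221 ± 110 CPM under the RXRgKO label and 533 ± 117 CPM under the WT label (SD, n = 4 each). The highest RXRgKO-labelled library, at 317 CPM, lay below the lowest WT-labelled library, at 432 CPM. The log2 fold change was -1.27 ± 0.33 (SE; adjusted p = 0.0143, edgeR). Without T3, Myrf averaged 126 ± 41.0 CPM under the RXRgKO label and 324 ± 97.5 CPM under the WT label, again without overlap, and the log2 fold change was -1.36 ± 0.33 (adjusted p = 0.0109). The call was kept in 19 of 21 alternative settings for each treatment. It was missed without WT-labelled untreated replicate 1 (log2 -1.11, adjusted p = 0.0523) and without RXRgKO-labelled untreated replicate 1 (-1.25, adjusted p = 0.0504) in untreated libraries, and without RXRgKO-labelled T3 replicate 1 (-1.06, adjusted p = 0.0572) and under a replicate block (-1.37, adjusted p = 0.0874) with T3. The Myrf difference with T3 was -0.79 without the low-Xist libraries and -2.15 without the high-Xist libraries, and in untreated libraries it was -1.02 and -1.88, each of these 4 called by edgeR.

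Nkx6-2 was called lower under the RXRgKO label as well, but its libraries overlapped. With T3 it averaged 37.9 ± 4.25 CPM under the RXRgKO label and 80.8 ± 32.7 CPM under the WT label, a log2 fold change of -1.09 ± 0.32 (SE; adjusted p = 0.0277, edgeR). Without T3 it averaged 9.74 ± 3.45 CPM under the RXRgKO label and 22.9 ± 6.71 CPM under the WT label, a log2 fold change of -1.24 ± 0.33 (adjusted p = 0.0184). WT-labelled replicate 1, at 33.2 CPM with T3 and 13.0 CPM untreated, lay inside the RXRgKO-labelled range in both cases, while WT-labelled replicates 2 to 4 lay above it. The call with T3 was kept in 9 of 21 alternative settings, with adjusted p up to 0.200, and the untreated one in 17 of 21, with adjusted p up to 0.122. With T3 it was lost without any of WT-labelled replicates 2 to 4 (log2 -1.06 to -0.94) or RXRgKO-labelled replicates 2 to 4 (-1.12 to -1.03), and untreated it was lost without RXRgKO-labelled replicate 2 (-1.12) or 4 (-1.11). Inpp5a on the opposite strand was also lower under the RXRgKO label, at 19.8 CPM against 38.9 CPM under the WT label with T3 (log2 -0.97, adjusted p = 1.4e-04) and 15.1 CPM against 25.2 CPM without T3 (-0.74, adjusted p = 0.00183).

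In all, 0 factors were called higher, 2 lower and 7 neither with T3, where 14.9% of all genes tested were called, 8.10% higher and 6.80% lower. Without T3 the same 2 factors were called lower, where 11.3% of genes were called, 6.17% higher and 5.16% lower. Zfp488 and Tcf7l2 also had negative differences, -0.60 and -0.59 with T3 and -0.66 and -0.77 without T3, none called. Untreated Zfp488 had 46.8 to 64.1 CPM in RXRgKO-labelled libraries and 66.6 to 133 CPM in WT-labelled ones, which did not overlap, with an adjusted p of 0.103. The median over the 4 maturation factors was -0.84 with T3 and -1.002 without it, beside 0.025 and -8.2e-04 over all genes.

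Among identity factors only Sox10 had a difference of similar size. Sox10 lay at 233, 229, 474 and 488 CPM in RXRgKO-labelled T3 replicates 1 to 4, against 797, 475, 440 and 428 CPM in WT-labelled T3 replicates 1 to 4. In untreated libraries it lay at 231, 353, 184 and 360 CPM under the RXRgKO label, against 824, 346, 344 and 371 CPM under the WT label. The low-Xist libraries were low and WT-labelled replicate 1 was high, while the other libraries lay together. The log2 differences, -0.59 ± 0.35 with T3 and -0.74 ± 0.35 without, were not called (adjusted p = 0.308 and 0.223, SE, edgeR). Olig2, the specifier of the lineage, averaged 336 ± 134 CPM under the RXRgKO label and 330 ± 74.3 CPM under the WT label with T3, and 357 ± 130 CPM under the RXRgKO label and 367 ± 83.5 CPM under the WT label without it. The 95% intervals of its log2 difference were -0.59 to 0.64 with T3 and -0.65 to 0.58 without. Without the high-Xist libraries, Olig2 was called lower under the RXRgKO label in both treatments. Its log2 difference was then -0.65 with T3 (adjusted p = 0.0377) and -0.64 untreated (adjusted p = 0.0485, edgeR). In the same fit Olig1 (-1.02 with T3, -0.72 untreated) and Sox10 (-1.28 and -1.24) were called lower as well. That fit called 27.5% of all genes with T3 and 20.9% without.

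In the fit with a term for library set, 8 of 9 factors were called between labels with T3 and 7 of 9 without T3, where 42.5% and 37.6% of all genes were called. The sets lie inside the labels, so this fit takes the spread between sets out of the error of a label comparison. Its p-values measure only the spread inside sets, which may be technical. Sox8 was the factor called higher under the RXRgKO label in both, by 0.26 with T3 and 0.23 without, and Nkx2-2 was called higher with T3 by 0.25. Without the high-Xist libraries the Sox8 difference was -0.16 with T3 and -0.19 untreated, neither called. Nkx2-2 shares 278 exon bases with Nkx2-2os on the opposite strand, which was lower under the RXRgKO label, at 3.03 CPM against 6.08 CPM under the WT label with T3 (log2 -1.02, adjusted p = 5.9e-04, edgeR). Olig1, Sox10, Nkx6-2, Myrf, Zfp488 and Tcf7l2 were called lower in both.

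No factor differed between labels in its T3 response. The difference (the log2 fold change with T3 in RXRgKO-labelled libraries minus the one in WT-labelled libraries) ranged from -0.14 for Olig1 to 0.23 for Nkx2-2 over the 9 factors, with standard errors of 0.34 to 0.49. It was 0.15 ± 0.45 for Nkx6-2, with a 95% interval of -0.80 to 1.10, and 0.09 ± 0.46 for Myrf, with an interval of -0.88 to 1.07 (SE, edgeR). Thus 0 of 9 factors were called by edgeR, 0 by DESeq2 and 0 by limma voom, and 0 had an unadjusted p under 0.05, where edgeR called 0.0658% of all genes tested, 0.0101% higher and 0.0557% lower. Each of the 9 intervals holds a response that is larger under the RXRgKO label by over 1.5-fold, so that equal responses are not shown.

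The balance between both classes was taken per library as the mean log2 CPM of the 4 maturation factors minus that of the 5 identity factors. It lay between -1.66 and -1.41 in RXRgKO-labelled T3 libraries, between -2.84 and -2.22 in RXRgKO-labelled untreated libraries, between -1.12 and -0.62 in WT-labelled T3 libraries and between -1.95 and -1.59 in WT-labelled untreated libraries. T3 libraries did not overlap untreated ones under either label, and labels did not overlap within either treatment. RXRgKO-labelled T3 libraries overlapped WT-labelled untreated ones. The summed level of the 5 identity factors overlapped between all groups, at 938 to 1899 CPM in RXRgKO-labelled T3 libraries, 978 to 1875 CPM in RXRgKO-labelled untreated libraries, 1389 to 2180 CPM in WT-labelled T3 libraries and 1417 to 2400 CPM in WT-labelled untreated libraries. The summed level of the 4 maturation factors also overlapped between T3 and untreated libraries. It was 262 to 514 CPM against 173 to 296 CPM under the RXRgKO label, and 683 to 1026 CPM against 417 to 735 CPM under the WT label. Between labels this sum did not overlap within either treatment. Nkx6-2 had the largest T3 difference of the 4 under both labels (log2 1.96 RXRgKO, 1.82 WT). These values are a description of the 9 genes, with no test.

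Sox8 and Sox10, which belong to the same subgroup of SOX proteins, differed in ratio between labels, and Sox10 TPM were above those of Sox8 in every T3 library of both labels. The log2 ratio of Sox8 to Sox10 TPM lay between -0.61 and -0.14 in RXRgKO-labelled T3 libraries, between 0.0027 and 0.18 in RXRgKO-labelled untreated libraries, between -1.37 and -1.21 in WT-labelled T3 libraries and between -1.27 and -0.64 in WT-labelled untreated libraries. Sox8 TPM were above those of Sox10 in 4 of 4 RXRgKO-labelled untreated libraries and in 0 of the 12 others. This order depends on the gene length: with the longest transcript as length it held in 2 of these 4 libraries, and the mean TPM of Sox8 were below those of Sox10, at 228 and 232 TPM. Neither gene was called alone in the fit to all 16 libraries by group. Sox8 shares 329 exon bases with the antisense gene 2810468N07Rik, which averaged 75.8 CPM under the RXRgKO label and 67.1 CPM under the WT label with T3. The log2 ratio of Olig1 to Olig2 TPM, a pair that sits close together on chromosome 16, varied less: 0.43 to 0.51 in RXRgKO-labelled T3 libraries, 0.59 to 0.71 in RXRgKO-labelled untreated libraries, 0.60 to 0.91 in WT-labelled T3 libraries and 0.61 to 0.84 in WT-labelled untreated libraries.

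**Figure D3:**
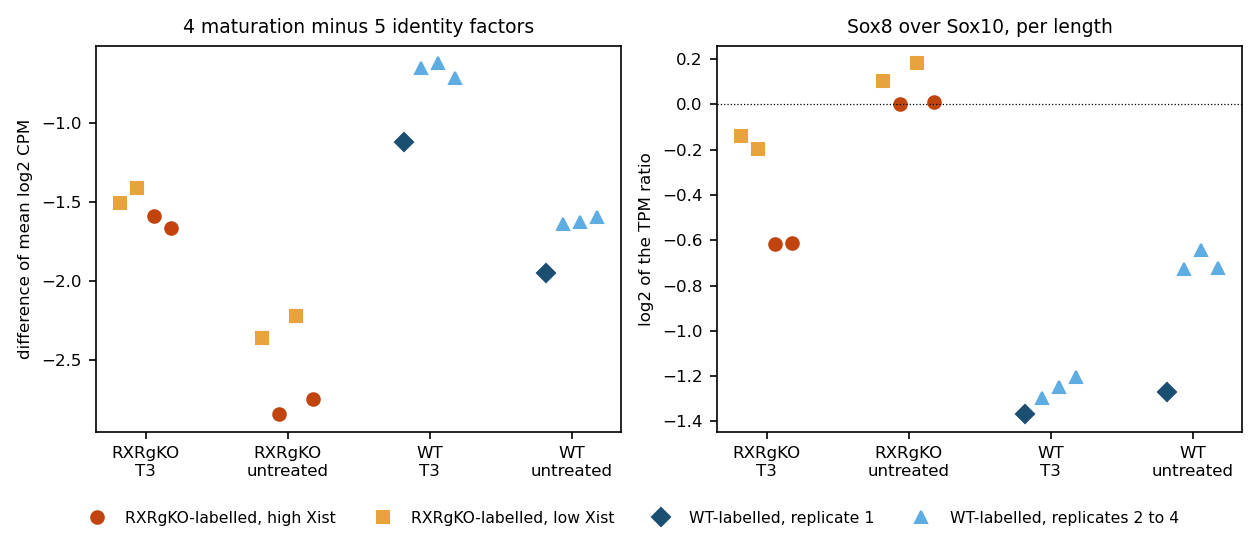
Left, mean log2 CPM of the 4 maturation factors minus that of the 5 identity factors in each library; right, log2 ratio of Sox8 to Sox10 TPM in each library, with the dotted line at equal TPM. Symbols show the library set; within each label, T3 libraries are above untreated ones on the left, and RXRgKO-labelled libraries are above WT-labelled ones on the right.

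Libraries of 1 group differed by set, and in these differences Nkx6-2 ran opposite to the other factors. In each of the 4 groups 8 of 9 factors were higher, without overlap, in WT-labelled replicate 1 (a single library in each group) than in replicates 2 to 4, or in the high-Xist than in the low-Xist set. This was so of 21.4% of all genes tested. Nkx6-2 was lower without overlap in all 4 groups, as were 13.7% of all genes tested. After group means were taken off, Nkx6-2 had correlations of -0.92 to -0.62 with the other 8 factors over 16 libraries, while the 28 pairs among those 8 had correlations of 0.60 to 0.98. These are descriptions, and the points share their library sets. Gfap, an astrocyte gene, moved with the sets as well: it lay at 4728 CPM in WT-labelled untreated replicate 1 and 819 to 1001 CPM in replicates 2 to 4. In RXRgKO-labelled untreated libraries Gfap lay the other way, at 2216 and 2207 CPM in the low-Xist set and 521 and 563 CPM in the high-Xist set, and its part in the differences between factors was not tested.

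**Figure D4:**
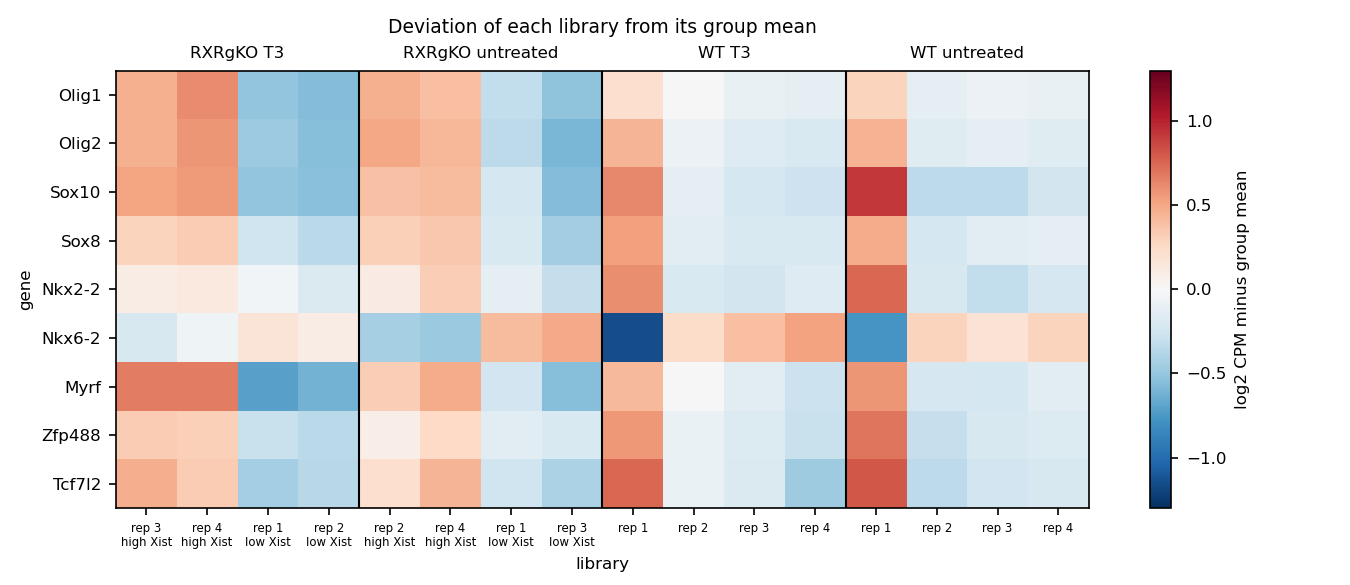
Log2 CPM of each factor in each library minus the mean of its group, from blue (below) to red (above), for the 16 libraries in 4 groups. Nkx6-2 runs opposite to the other 8 factors in each group.

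Genes whose log2 CPM followed each factor over the 16 libraries were sought among 12313 protein-coding genes. For Nkx6-2 they were Arpc1a, Higd1a and Ndufv3 (Pearson r 0.96, 0.95 and 0.95), and for Myrf Map1a, Smurf1 and Fscn1 (0.99 each). Zfp488 had Samd4b and Rap1gds1 among its 3 (0.99 each), and Tcf7l2 was most like Zfp488 itself (0.99), with Elovl4 and Samd4b next (0.98 each). The Zfp488 and Tcf7l2 pair was the single case in which 1 of the 9 factors was among the 3 genes most like another. Identity factors had Atp9a for Olig1 (0.97), Vars for Olig2 (0.99), Gnptab for Sox10 (0.99), Lima1 for Sox8 (0.98) and Lrrtm3 for Nkx2-2 (0.96) as their nearest. The 16 points share library sets and treatment, so these values carry no p.

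Of 59 other regulators of the lineage, 58 passed the filter, all but Olig3, and most were not called. With T3 under the RXRgKO label 2 rose, 1 fell and 55 were not called, where 2.01% of all genes were called higher and 0.794% lower, with a list median of 0.012 and -0.0019 over all genes. The T3-responsive Krüppel-like factor Klf9 rose to 61.8 CPM, against 13.0 CPM untreated (log2 2.25, adjusted p = 3.6e-04), Stat3, a signal transducer with roles in glia, rose by 1.11 (adjusted p = 0.0111), and Sox5, a SOX factor of OPCs, fell by 0.56 (adjusted p = 0.0339, edgeR). With T3 under the WT label 5 rose, 5 fell and 48 were not called, where 4.96% of all genes were called higher and 3.48% lower, with a list median of -0.050. Klf9 rose by 1.65, Stat3 by 1.31, Zfp536 by 1.48 and Gli2, a Hedgehog effector, by 0.75, while Id4, an inhibitor of helix-loop-helix factors such as Olig2, fell by 0.69 and Prrx1 fell by 0.58 on the log2 scale.

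Between labels the same list was called in both directions. With T3, 6 were higher, 7 lower and 45 not called under the RXRgKO label, where 8.10% of all genes were called higher and 6.80% lower, with a list median of 0.062. Without T3, 5 were higher, 5 lower and 48 not called, where 6.17% of all genes were called higher and 5.16% lower, with a list median of 0.034. Gli1, the main transcriptional readout of Hedgehog signalling, had the smallest adjusted p in both. It averaged 4.78 CPM under the RXRgKO label and 0.330 CPM under the WT label with T3 (log2 3.84, adjusted p = 5.8e-08), and 6.68 CPM and 0.454 CPM under the same labels without T3 (3.87, adjusted p = 5.0e-08). Nkx2-1, a homeodomain factor of the ventral forebrain, was higher by 2.04 with T3 and 1.70 without, and St18, a zinc-finger relative of Myt1, was lower by 1.05 with T3 and 0.82 without. The thyroid hormone receptor gene Thrb was lower by 0.77 with T3 and 0.65 without, and Nr1d1, a clock repressor, by 0.77 and 0.60. Zfp536 with T3 (-1.71) and Hes1 without T3 (1.06), a Notch effector, complete the 6 with the smallest adjusted p in each. For the T3 response difference 0 of 58 were called.

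Myelin and late oligodendrocyte genes known from mouse work to depend on Sox10 or Myrf formed a list of 18, all of which passed the filter. With T3, 8 rose, 0 fell and 10 were not called under the RXRgKO label (list median 0.90), where 2.01% of all genes rose, and 11 rose, 0 fell and 7 were not called under the WT label (list median 1.01), where 4.96% of all genes rose. Opalin, a myelin membrane protein, rose to 37.6 CPM with T3 under the RXRgKO label, against 0.830 CPM untreated, and to 22.3 CPM with T3 under the WT label, against 2.08 CPM untreated. Between labels 0 were higher, 15 lower and 3 not called with T3 (list median -2.59), where 6.80% of all genes were lower, and 0 were higher, 16 lower and 2 not called without T3 (list median -2.53), where 5.16% of all genes were lower. Mbp, myelin basic protein, averaged 627 CPM under the RXRgKO label and 9596 CPM under the WT label with T3, and 193 CPM under the RXRgKO label and 5174 CPM under the WT label without it. Its log2 differences, -3.94 with T3 and -4.74 without, stood beside -1.27 and -1.36 for Myrf and -0.59 and -0.74 for Sox10. The T3 and label comparisons of 1 group share libraries, so their values are set side by side only.

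Markers of other cells were checked in the same libraries. Microglia genes summed to 3.95 to 19.6 CPM in RXRgKO-labelled T3 libraries, 12.3 to 22.6 CPM in RXRgKO-labelled untreated libraries, 2.02 to 2.86 CPM in WT-labelled T3 libraries and 2.07 to 3.40 CPM in WT-labelled untreated libraries, and 6 of 7 were called higher under the RXRgKO label in both treatments, where 8.10% of all genes were higher with T3 and 6.17% without. Of other lists, 4 of 6 mural and fibroblast genes, 3 of 4 endothelial genes that passed the filter and 4 of 4 ependymal genes that passed it were also called higher in both treatments. With T3 under the WT label 1 of 7 microglia genes (P2ry12) and 2 of 4 ependymal genes were called higher, where 4.96% of all genes were. P2ry12 averaged 1.31 CPM with T3 and 0.377 CPM untreated. The other 6 microglia genes had negative differences, none called, and the list median was -1.35. With T3 under the RXRgKO label none of these 4 lists had a called gene. Neuron genes summed to 738 to 994 CPM in RXRgKO-labelled T3 libraries and 376 to 506 CPM in WT-labelled T3 libraries. Of 10, 6 were higher under the RXRgKO label with T3 and 2 without T3, where 8.10% and 6.17% of all genes were. With T3 under the WT label 4 of 10 fell, where 3.48% of all genes did. OPC genes were mostly not called. Between labels 1 of 12 was higher under the RXRgKO label with T3 (Neu4) and 0 of 12 without T3, beside 8.10% and 6.17% of all genes. For T3 under the RXRgKO label 0 of 12 were called, where 2.81% of all genes were. Cspg5, 1 of 12, was lower with T3 under the WT label, where 3.48% of all genes were. Neural stem cell genes were called higher in 2 of 7 untreated under the RXRgKO label (Vim and Nes), where 6.17% of all genes were. With T3 under the WT label Vim rose and Hes5 fell, where 4.96% of all genes rose and 3.48% fell. Astrocyte genes were not called in any comparison. Within library sets, however, Gfap was higher with T3. It lay at 1756 and 1944 CPM with T3 against 521 and 563 CPM untreated in the high-Xist set, and at 4010 and 3458 CPM against 2216 and 2207 CPM in the low-Xist set. Under the WT label it lay at 11207 CPM against 4728 CPM in replicate 1 and 2455 to 2834 CPM against 819 to 1001 CPM in replicates 2 to 4. Of Schwann cell genes, checked because these cells use Sox10 as well, Pmp2 lay at no more than 0.048 CPM in any library, and 0 of the 4 Schwann and neural crest genes that passed the filter were called. The part of these other cells in the differences between factors was not tested.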

How the data were processed

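Values were the deposited raw counts per Ensembl gene in 16 libraries. The submitters' processing notes name STAR 2.5.3a, HTSeq 0.6.1p1, bcl2fastq 2.17.1.14 and the mm10 build. Per the labels' protocols, libraries were poly-A selected and dUTP-stranded, whereas neither the annotation release nor the counting's strand setting is given in the sources used here. The 5 HTSeq summary lines stayed out of all tests. Library depth was 18262279 to 42588442 gene counts, 22.4% to 46.8% of the reads accounted for. Reads carry no molecular identifiers, so counting error is covered by the model only. GENCODE M21 (GRCm38) gave symbols, positions and exon lengths for 55154 of 55335 identifiers, and promoters from RefSeq on GRCm38.p6.

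With R 4.3.3 and edgeR 4.0.16, all 16 libraries were fitted together by quasi-likelihood, with group means, TMM factors, filterByExpr and robust dispersions. An adjusted p (Benjamini-Hochberg, 19764 genes) under 0.05 was called. Log2 CPM used a prior count of 2. Each SE is the size of the log2 fold change over the square root of its F statistic. Alternatives were DESeq2 1.42.0, limma 3.58.1 voom, DESeq2 size factors, a filter of 1 CPM in 4 libraries or none, non-robust dispersions, a replicate block, fits to the compared groups alone, library set as a term, sets left out and each library left out. The fit was tested on simulated data. Library sets joined libraries of a group with a chi-square per gene under 3, over genes with summed counts of 20 to 500.

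The 9 factors, the gene lists, the tests and the alternatives were chosen with earlier results of these data known. Named beyond the 9 factors were up to 6 called other regulators and up to 3 called genes of each other list per comparison by smallest adjusted p, and the 3 genes most correlated with each factor. Some genes that met this rule are not reported here. Rxrg, Xist, Ddx3y, Gfap, Pdgfra, Olig3, Pmp2 and genes overlapping a factor were named outside it.

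Same-numbered replicates were checked for pairing by the correlation of their residuals. For T3 under the WT label these were 0.648, 0.247, 0.211 and 0.164, so the numbers were taken as pairs there, although for replicates 2 and 4 the best match was another number. Replicate 1 stood apart in both groups, so this check cannot show pairs among replicates 2 to 4. In replicates 2 to 4 Xist lay at 276 to 365 CPM with T3 and 1198 to 1382 CPM untreated. For T3 under the RXRgKO label they were 0.543, -0.629, -0.697 and 0.600, and between labels they were mixed, so no pairing was taken.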

Additional observations from a re-analysis of the deposited data

Results flagged for a closer look

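In the WT-labelled groups, replicate 1 lay far from replicates 2 to 4, with a gap to the nearest library that was above Dixon's 95% critical value as a share of the group's range. In the untreated group this held for all 9 factors. Replicate 1 was high for Olig1 (643 CPM), Olig2 (492 CPM), Sox10 (824 CPM), Sox8 (349 CPM), Nkx2-2 (91.7 CPM), Myrf (470 CPM), Zfp488 (133 CPM) and Tcf7l2 (119 CPM), and low for Nkx6-2 (13.0 CPM). In the T3 group it was high for Olig2 (440 CPM), Sox10 (797 CPM), Sox8 (316 CPM) and Nkx2-2 (56.7 CPM). In all, 13 of 36 sets of 4 libraries met this criterion, all 13 in replicate 1 of a WT-labelled group, while chance flags about 1 in 20. The factors share that library, so the 13 are not independent.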

How the results depend on the processing

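Of 9 factors, 1 was called for T3 under the WT label. This became 5 under the replicate block on those groups (29.4% of all genes called) and 7 with the library set as a term (38.4%). It became 2 without both first WT-labelled libraries, where 2688 of 20573 genes were called. With a library left out it was 1 to 2 (2 without WT-labelled T3 replicate 1, where 1867 of 20685 genes were called). For T3 under the RXRgKO label, 1 became 8 with the set term (33.6% of all genes called). It became 0 without the high-Xist libraries, where 0.597% of all genes were called, and stayed 1 with any library left out. Between labels without T3, 2 became 1 under the replicate block on the groups compared (1672 of 18460 genes called) and 7 with the set term (37.6%). It became 6 without the high-Xist libraries (where 20.9% of all genes were called) and 1 to 2 with a library left out. With T3, 2 became 1 in limma voom (2758 of 19764 genes called) and in the replicate block over all 16 libraries (2821 of 19764). It also became 1 with only the groups compared (2318 of 17315) and without the low-Xist libraries (3116 of 19733). It became 0 in the replicate block on the groups compared (1381 of 17315) and 8 with the set term (42.5% of all genes). It became 6 without the high-Xist libraries (where 27.5% of all genes were called) and 1 to 2 with a library left out. Nkx6-2 was not among the 6 called between labels without the high-Xist libraries. Its log2 difference there was -1.05 with T3 (adjusted p = 0.0673) and -0.92 untreated (adjusted p = 0.122, edgeR). Without both first WT-labelled libraries, Nkx2-2 with T3 was called higher under the RXRgKO label (log2 0.46, adjusted p = 0.0372, edgeR). The response difference stayed at 0 in every alternative run. Every omission leaves fewer libraries, and set terms remove the spread between sets. The part of either in these changes was not tested. DESeq2 moved the median of all genes to -0.113 for T3 under the WT label, -0.221 under the RXRgKO label and 0.165 between labels without T3, and no low-count filter moved it to -0.101, -0.202 and 0.128.

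Signs changed for 50 of 783 values of single factors, all uncalled except Olig2 between labels with T3 without the high-Xist libraries (-0.65, adjusted p = 0.0377, edgeR). Olig2 between labels with T3 was -0.012 by DESeq2, -0.053 by limma voom, -0.0034 with DESeq2 size factors, -0.0055 without a filter, -0.019 under the replicate block on the groups compared, -0.039 with the set term and -0.18 to 0.21 with a library left out. Without T3 it was 0.16 without both first WT-labelled libraries, 0.35 without the low-Xist libraries and -0.22 to 0.16 with a library left out. Without the high-Xist libraries it was -0.64 untreated, which was called (adjusted p = 0.0485, edgeR) and kept its sign. Nkx2-2 between labels without T3 was 0.025 by limma voom, 0.0063 with 1 CPM in 4 libraries, 0.034 and 0.015 under the replicate block over all 16 libraries and over the groups compared, 0.031 with the set term, 0.31 without both first WT-labelled libraries, 0.17 without the low-Xist libraries and -0.16 to 0.31 with a library left out. Olig1 without the low-Xist libraries was 0.18 untreated and 0.083 with T3, and Sox8 without the high-Xist libraries was -0.19 untreated and -0.16 with T3. Olig1 without the high-Xist libraries was -0.72 untreated and -1.02 with T3, both called with an unchanged sign. The response difference of Myrf was -0.025 by limma voom, -0.014 with the set term, -0.27 without the high-Xist libraries and -0.16 to 0.29 with a library left out, and that of Nkx6-2 was -0.13 without the high-Xist libraries and -0.10 to 0.34 with a library left out. With a library left out, T3 under the WT label ran from -0.20 to 0.0089 for Olig1, -0.34 to 0.031 for Olig2, -0.099 to 0.61 for Sox10, -0.43 to 0.011 for Sox8 and -0.035 to 0.67 for Tcf7l2, and T3 under the RXRgKO label ran from -0.31 to 0.081 for Olig2. Ranks by TPM moved for 11 of 36 values with the longest transcript as length, as given above. These genes had at least 179 counts in every library, and the part of library depth in their differences was not tested.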
